A study of Mus musculus with 9 samples.

Results

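Cd83, serglycin (Srgn) and 5 genes of dendritic cells, Ccr7, Cd80, Cd86, Flt3 and Itgax, were described in whole mouse uterus as 7 of the 35934 genes with annotated transcripts. Cd83 and Srgn were chosen by their FPKM in these same libraries, in which they differ between the groups, so their differences between the groups are given as a description without a test. The other 5 were added as genes known from dendritic cells. Each gene's level is the FPKM, a read density scaled to transcript length and library size, summed over its annotated transcripts. The fit across all genes took in those whose mean over the 9 libraries reached 1 FPKM, and Cd83, Srgn, Cd86 and Itgax, 4 of the 7, did. Test results are given for Cd86 and Itgax, while for Cd83 and Srgn only the difference and its SE are taken from the fit. Ccr7, Cd80 and Flt3 lay below 1 FPKM and are given by their values only.

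Uterine RNA was sequenced in 3 libraries for each of 3 groups. The horns of the arrested group were injected with the pooled medium of 18 human embryos that had arrested in development, those of the competent group with the pooled medium of 9 developmentally competent human embryos, and those of the control group with embryo culture medium that had held no embryo. All groups were immature C57BL/6 females primed with 1 mg progesterone and with estradiol at 10 mg/kg per day for 3 days, and each injection was 50 µl. The treatment protocol gives their age as 25 days while the design text also names 21 days, a difference the labels do not resolve. The conditioned media were pooled over embryos, and the labels leave unsaid whether each library is from its own animal, so p-values measure only how these samples spread, and that spread may be technical. In such whole-organ samples, fewer cells of a type and less RNA per cell cannot be told apart.

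Dendritic cells take up antigen, present it on MHC class II and, once activated, raise the costimulatory proteins CD80 and CD86 that T cells read through CD28. CD83 appears on the surface of activated dendritic cells and of activated lymphocytes. It opposes the ubiquitin ligase MARCH1 and so keeps MHC class II and CD86 at the surface. Serglycin is the core protein of the proteoglycans of leukocyte granules, where its glycosaminoglycan chains hold granzymes and other basic proteases. In the uterus, dendritic cells and natural killer cells are among the leukocytes of the lining that receives the embryo.

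The chains of serglycin are attached to serines that alternate with glycines, and the part of its coding sequence that carries them is shown because it is what makes the protein a proteoglycan. Capitals mark the 10 consecutive serine-glycine codon pairs, codons 90 to 109 of transcript ENSMUST00000020271 on chromosome 10. They make up 13.2% of the 152 codons before the stop and use 5 different serine codons and 3 glycine codons.
Srgn coding stretch, ENSMUST00000020271: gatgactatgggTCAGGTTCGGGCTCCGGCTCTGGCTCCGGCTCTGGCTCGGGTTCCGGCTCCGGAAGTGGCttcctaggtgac

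Promoter windows from RefSeq, on build GRCm38.p6, were found for 4 of the 7 genes: Srgn (2 windows), Cd80, Flt3 and Itgax. Cd83, Ccr7 and Cd86 have no window there. The inner Srgn window, in which both transcripts detected here begin, holds 1 copy of the core of a cyclic AMP response element, TGACGT, shown in capitals. It lies on the minus strand at chr10:62507812-62507841, with 68 bases between the core and the first base of ENSMUST00000020271. The core lies 109 bases downstream of the first base of ENSMUST00000162161, the more abundant of the 2 transcripts. The 30 bases shown do not occur as a whole in the sequence of that transcript, and the core alone was not searched there.
Srgn inner window: ttcaggaaactgTGACGTgtgttcttgggc
These letters stand on either strand of 6.5% of the 32851 windows in the first 250 bases. The AP-1 motif TGANTCA, present in 6.7% of windows, was found at 1 place in each of the Cd80 and Itgax windows. It reads the same on both strands, and the match on each strand is the same site. The core of the PU.1 motif, GAGGAA, stood in 23.3% of windows and the NF-kB consensus in 7.3%, and neither was found in the windows of these genes. A match describes letters and not a bound site.

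Cd83 (ENSMUSG00000015396, NCBIM37 chr13:43880476-43898499, plus strand) differed between all 3 groups. It stood at 7.59, 6.26 and 6.89 FPKM in the arrested libraries, at 1.39, 1.01 and 1.27 FPKM in the competent libraries and at 3.00, 3.21 and 3.60 FPKM in the control libraries. The arrested libraries were the 3 highest and the competent libraries the 3 lowest, with the controls between them and no overlap between any 2 groups. Over all genes tested, 7.73% were higher in every arrested than in every competent library, 3.49% were higher in every arrested than in every control library, and 8.13% were lower in every competent than in every control library. The means were 6.91 ± 0.668 FPKM in arrested, 1.22 ± 0.196 FPKM in competent and 3.27 ± 0.305 FPKM in control libraries (SD, n = 3 each). The mean of the arrested libraries was thus 5.65 times that of the competent libraries and 2.12 times that of the controls, and the competent mean was 0.374 times the control mean. On the log2(FPKM + 1) scale, which understates changes of low genes, the difference was 1.83 ± 0.19 (SE) for arrested minus competent, 0.89 ± 0.19 for arrested minus control and -0.94 ± 0.19 for competent minus control.

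All of this came from 1 transcript, ENSMUST00000015540, of 5 exons and 2143 bases with a coding length of 591 bases. The other annotated coding transcript, ENSMUST00000168861, was listed at 0 in every library. The coverage of ENSMUST00000015540 gave the number of reads or read pairs behind these values (which of them is not stated), since it came in whole multiples of 1 step, to within 0.1 of a step, in 7 of the 9 libraries. There were 226, 166 and 207 steps in the arrested libraries, 53, 35 and 36 in the competent libraries and 93 in control library 2. The authors' confidence interval gives the same numbers when its half-width is read as 2 FPKM divided by the square root of that number. The size of the step was itself set from these intervals, so they are no independent check of its scale. Control libraries 1 and 3, where the multiple was 63.25 and 95.24, are the libraries in which a further Cd83 transcript was assembled, of 3 and 5 exons and of 1.23 and 1.24 FPKM. With it, the control libraries stood at 4.22, 3.21 and 4.84 FPKM and still lay between the other groups.

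The authors' intervals for single libraries, which hold counting error and not the spread between samples, ran from 5.29 to 8.60 FPKM over the arrested libraries, from 0.666 to 1.77 FPKM over the competent libraries and from 2.15 to 4.42 FPKM over the control libraries. In depth, 1 FPKM of Cd83 corresponded to 29.8, 26.5 and 30.1 steps in the arrested libraries, to 38.2, 34.8 and 28.3 in the competent libraries and to 29.0 in control library 2, so that the ranges of the arrested and competent libraries overlapped. Coverage scaled to the library total ordered the groups alike, at 10.0 ± 0.722 in arrested, 1.81 ± 0.264 in competent and 4.86 ± 0.469 in control libraries (SD, n = 3 each).

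**Figure D1:**
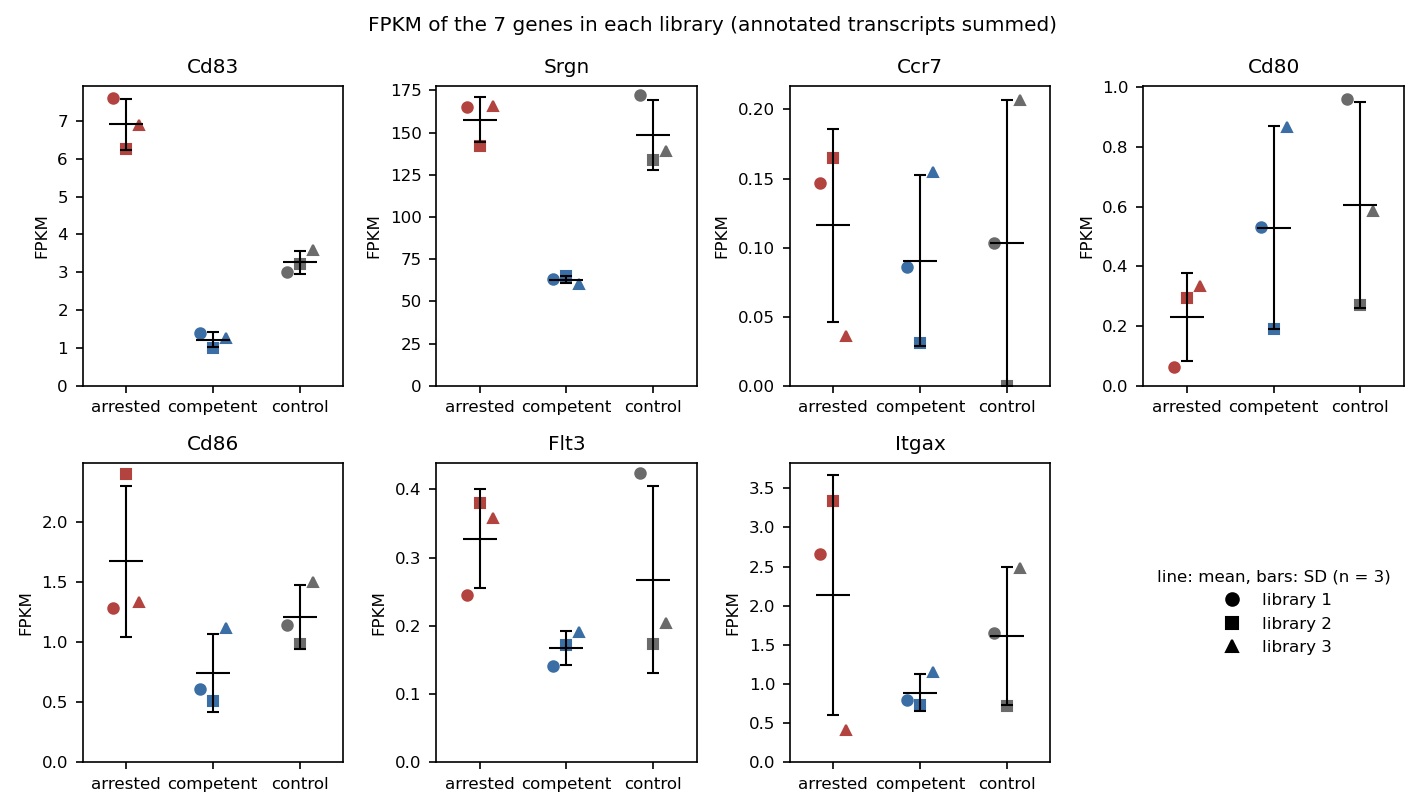
FPKM of Cd83, Srgn, Ccr7, Cd80, Cd86, Flt3 and Itgax in each library, with a vertical axis of its own for each gene; the horizontal line is the mean and the bars are the SD of 3 libraries. Cd83 separates all 3 groups, Srgn is at 60.6 to 65.0 FPKM in the competent libraries and at 134 to 172 FPKM in the 6 others, and the other 5 genes stay at or below 3.34 FPKM.

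Srgn (ENSMUSG00000020077, chr10:61956581-61990199, minus strand) was the most abundant of the 7 genes and lower in the competent group than in either of the others. It stood at 165, 142 and 166 FPKM in the arrested libraries, at 63.1, 65.0 and 60.6 FPKM in the competent libraries and at 172, 134 and 139 FPKM in the control libraries. The competent libraries lay close together and below all others, while the arrested and control libraries overlapped. The means were 158 ± 13.4 FPKM in arrested, 62.9 ± 2.18 FPKM in competent and 148 ± 20.7 FPKM in control libraries (SD, n = 3 each). Differences on the log2(FPKM + 1) scale were 1.31 ± 0.13 (SE) for arrested minus competent, -1.22 ± 0.13 for competent minus control and 0.09 ± 0.13 for arrested minus control. In the arrested libraries Srgn averaged 1.06 times and Cd83 2.12 times its control mean, and this contrast between the 2 genes was not tested.

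Of 6 annotated Srgn transcripts, 2 were above 0, and both encode the same 459 bases of coding sequence. ENSMUST00000162161, of 4 exons and 694 bases, averaged 95.1 ± 4.85 FPKM in arrested, 33.4 ± 2.70 FPKM in competent and 92.8 ± 15.8 FPKM in control libraries. ENSMUST00000020271, of 3 exons and 938 bases, averaged 62.7 ± 12.9 FPKM in arrested, 29.5 ± 3.38 FPKM in competent and 55.5 ± 12.8 FPKM in control libraries. Each of the 2 transcripts was lower in every competent library than in any other. The 4-exon transcript made up 60.5 ± 5.27% of Srgn in arrested, 53.1 ± 4.51% in competent and 62.6 ± 7.09% in control libraries (SD, n = 3 each), and these shares overlapped between the groups. The other 4 transcripts, among them the 3 that begin at the outer start of the gene, were listed at 0 in every library.

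**Figure D2:**
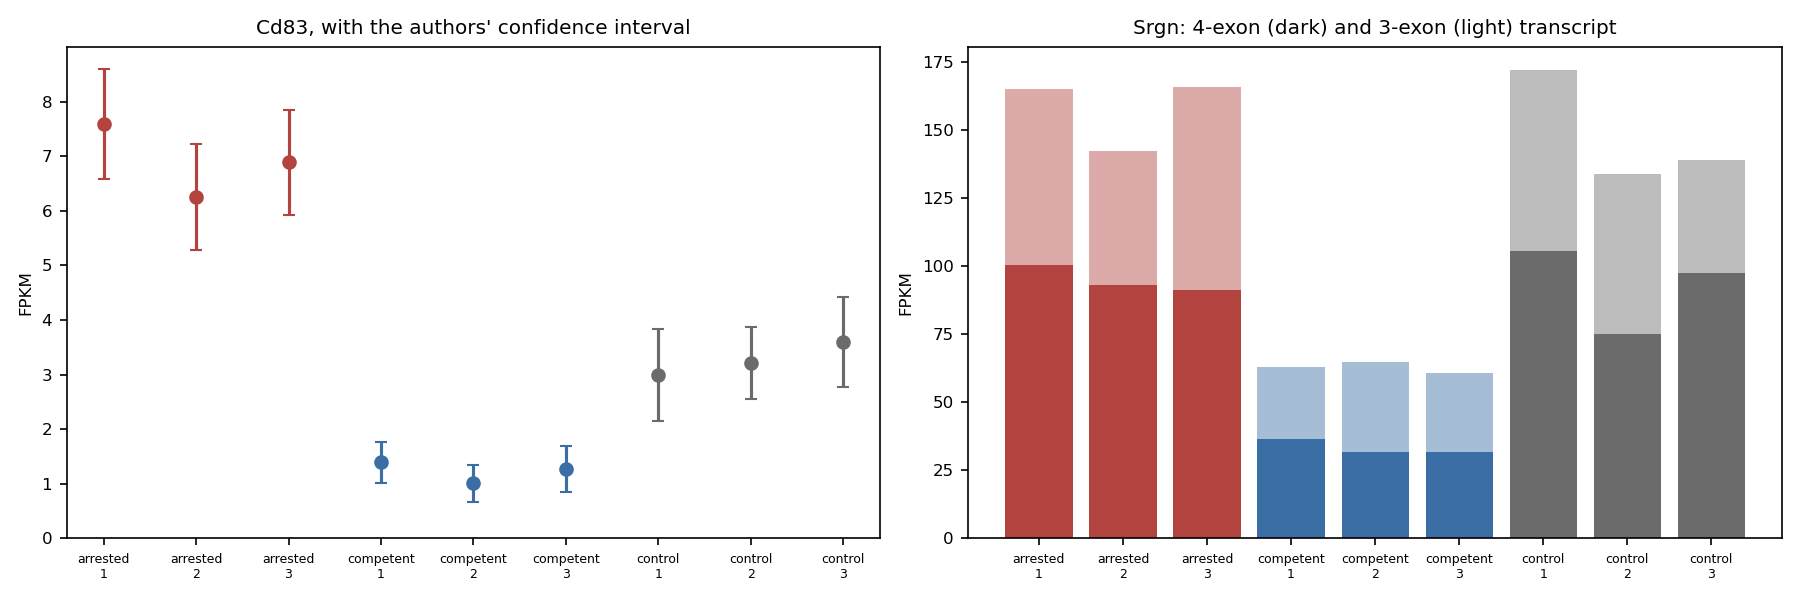
Left, FPKM of Cd83 in each library with the ends of the authors' confidence interval; right, stacked FPKM of the 4-exon (dark) and 3-exon (light) Srgn transcripts in each library. The Cd83 intervals, which hold counting error only, run from 5.29 to 8.60 FPKM in arrested, 0.666 to 1.77 FPKM in competent and 2.15 to 4.42 FPKM in control libraries, and both Srgn transcripts are lower in the competent libraries.

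Of the costimulatory ligands, Cd86 was tested and did not pass the threshold in any comparison, and Cd80 was too low to be tested. Cd86 (ENSMUSG00000022901, chr16:36603955-36666167, minus strand) stood at 1.28, 2.39 and 1.34 FPKM in arrested libraries, at 0.609, 0.511 and 1.11 FPKM in competent libraries and at 1.14, 0.988 and 1.50 FPKM in control libraries. Every arrested library was above every competent one, and the controls overlapped with both. The difference of log2(FPKM + 1) was 0.60 ± 0.30 (SE) for arrested minus competent (limma adjusted p = 0.513 over all genes), 0.25 ± 0.30 for arrested minus control (limma adjusted p = 0.925) and -0.35 ± 0.30 for competent minus control (limma adjusted p = 0.955). The separation rested on a short transcript without a coding sequence, ENSMUST00000154485, which supplied 1.19 of the 2.39 FPKM of arrested library 2 and 1.03 of the 1.34 FPKM of arrested library 3, had a lower interval end of 0 in both, and was at 0 in the 7 others. The coding transcript ENSMUST00000089620 alone stood at 1.28, 1.21 and 0.302 FPKM in the arrested libraries, which overlaps with the competent libraries. Scaled coverage in place of FPKM turned the arrested minus control difference to -0.15.

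Cd80 (ENSMUSG00000075122, chr16:38459013-38495821, plus strand), the second ligand of CD28, stood at 0.0635, 0.296 and 0.335 FPKM in arrested libraries, at 0.531, 0.190 and 0.868 FPKM in competent libraries and at 0.959, 0.272 and 0.585 FPKM in control libraries. The 3 groups overlapped, and the mean of the arrested libraries was the lowest. Its 3 coding transcripts took turns as the only or main one between libraries.

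Ccr7 (ENSMUSG00000037944, chr11:99005510-99016391, minus strand), the receptor by which mature dendritic cells follow CCL19 and CCL21 to lymph nodes, was close to the detection limit. It stood at 0.147, 0.165 and 0.0364 FPKM in arrested libraries, at 0.0860, 0.0314 and 0.155 FPKM in competent libraries and at 0.104, 0 and 0.207 FPKM in control libraries. In whole coverage steps these values were 4, 4 and 1 in arrested, 3, 1 and 4 in competent and 2, 0 and 5 in control libraries. No difference was detectable at this depth.

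Flt3 and Itgax mark the dendritic cell lineage more than its activation. Flt3 (ENSMUSG00000042817, chr5:148142317-148212065, minus strand), the receptor of the cytokine that drives dendritic cell development, stood at 0.245, 0.380 and 0.359 FPKM in arrested libraries, at 0.141, 0.172 and 0.191 FPKM in competent libraries and at 0.425, 0.174 and 0.204 FPKM in control libraries. These were 13, 18 and 18 coverage steps in arrested, 9, 10 and 9 in competent and 16, 9 and 9 in control libraries. The arrested libraries lay above the competent ones, and the controls overlapped with both. The gene was too low to be tested.

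Itgax (ENSMUSG00000030789, chr7:135273061-135294171, plus strand) encodes CD11c, the integrin chain by which dendritic cells are commonly sorted and which some macrophages also carry. It stood at 2.66, 3.34 and 0.410 FPKM in arrested libraries, at 0.791, 0.730 and 1.16 FPKM in competent libraries and at 1.65, 0.718 and 2.48 FPKM in control libraries. Arrested library 3 was the lowest of all 9 and arrested libraries 1 and 2 the 2 highest. The difference was 0.58 ± 0.47 for arrested minus competent (limma adjusted p = 0.708), 0.17 ± 0.47 for arrested minus control (limma adjusted p = 0.993) and -0.41 ± 0.47 for competent minus control (limma adjusted p = 0.963). In each library 1 of 2 annotated transcripts of 30 exons carried the whole value. Transcripts assembled from the reads of single libraries changed the order, since with them Itgax stood at 2.66, 3.34 and 7.85 FPKM in arrested, at 2.31, 6.46 and 1.16 FPKM in competent and at 5.38, 3.88 and 3.77 FPKM in control libraries.

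By mean level over the 9 libraries the order was Srgn, Cd83, Itgax, Cd86, Cd80, Flt3 and Ccr7, at 123, 3.80, 1.55, 1.21, 0.456, 0.254 and 0.103 FPKM. Srgn ranked 951st and Cd83 10178th of the 35934 genes. The range of Srgn over the libraries lay clear of that of Cd83, and every other pair of neighbours in this order overlapped in range. Across the 9 libraries, which share their groups, log2(FPKM + 1) of Cd83 had a Pearson r of 0.878 with Srgn, 0.747 with Cd86, 0.610 with Flt3 and -0.421 with Cd80. Cd86 and Itgax had an r of 0.703, and Ccr7 and Itgax 0.829. These are given as a description.

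Over all 13333 genes tested, limma called 18 for arrested minus competent, which is 0.135% of them, 7 for arrested minus control (0.0525%) and 6 for competent minus control (0.045%). Neither Cd86 nor Itgax was among them in any comparison. Of the 4 genes of the set above the minimum, 3 (Cd83, Srgn and Cd86) were higher in every arrested library than in every competent one, against 7.73% of all genes tested. Nothing is read from that count, since Cd83 and Srgn had been picked for their values. An unadjusted p under 0.05 was reached by 10.9% of all genes tested for arrested minus competent, by 5.27% for arrested minus control and by 5.18% for competent minus control.

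Other genes of dendritic cells did not pass the threshold in any comparison. Of 16 names for the lineage and its subsets, 15 matched the annotation and 8 were tested, with a median difference of 0.20 for arrested minus competent, against -0.01 over all genes. For arrested minus competent 6 of these differences were above 0 and 2 below 0, the latter being Cd209a (-0.26 ± 0.36) and Clec10a (-0.52 ± 0.59). Id2 and Sirpa differed by 0.60 ± 0.35 and 1.49 ± 0.95 (limma adjusted p = 0.587 and 0.625). Sirpa stood at 2.16, 8.58 and 3.55 FPKM in arrested and at 0, 5.24 and 0 FPKM in competent libraries. In control libraries it stood at 1.61, 0 and 6.84 FPKM, and its values of 0 can be failed estimates. None of the 8 reached an unadjusted p under 0.05 in limma in any comparison. Zbtb46, a transcription factor of conventional dendritic cells, stood at 0.819, 1.64 and 2.03 FPKM in arrested, at 1.43, 1.03 and 1.81 FPKM in competent and at 1.11, 1.49 and 0.825 FPKM in control libraries. Clec9a and Xcr1 mark the cross-presenting subset. Clec9a stood at 2.08, 2.67 and 1.28 FPKM in arrested, at 1.20, 0.431 and 1.41 FPKM in competent and at 1.33, 0.852 and 3.50 FPKM in control libraries. The groups overlapped for Zbtb46 and for Clec9a. Xcr1, below the minimum for a test, stood at 0.520, 0.343 and 0.257 FPKM in arrested, at 0.131, 0.209 and 0.241 FPKM in competent and at 0.388, 0.157 and 0.361 FPKM in control libraries, with every arrested library above every competent one and the controls overlapping with both. Zbtb46, Clec9a and Xcr1, given to show their level, were above 0 in every library.

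Of 20 genes of dendritic cell maturation, 14 were tested and none was called by limma. For arrested minus competent 7 differences were above 0 and 7 below 0, with a median of 0.01. An unadjusted p under 0.05 in limma was reached by 1 of them, against 10.9% of all genes tested. That gene was Icosl, the ligand of the T cell receptor ICOS. It stood at 3.49, 4.61 and 4.62 FPKM in arrested, at 2.14, 2.71 and 1.29 FPKM in competent and at 4.02, 5.05 and 5.37 FPKM in control libraries. The competent libraries lay below all others. Of the 14 genes, 1 was higher in every arrested than in every competent library, where 7.73% of all genes tested were. The difference was 0.80 ± 0.24 for arrested minus competent (limma adjusted p = 0.356) and -0.95 ± 0.24 for competent minus control (limma adjusted p = 0.852), so neither passed. Relb and Cd40, an NF-kB subunit and a receptor of mature dendritic cells, overlapped between the groups, with differences of 0.45 ± 0.36 and 0.35 ± 0.41 for arrested minus competent (limma adjusted p = 0.706 and 0.809).

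Of 12 ligands and partners of the 7 genes, 6 were tested and none was called by limma or reached an unadjusted p under 0.05. Ccl21a, a ligand of CCR7, stood at 68.1, 106 and 25.1 FPKM in arrested, at 78.3, 94.8 and 70.7 FPKM in competent and at 93.8, 87.6 and 60.5 FPKM in control libraries, and its reads cannot be told apart with certainty from those of the near-identical Ccl21b and Ccl21c. Ccl19, the other ligand, stayed at or below 0.212 FPKM. March1, the ligase that CD83 opposes, stood at 0.182, 0 and 0.131 FPKM in arrested, at 0.263, 0.186 and 0.188 FPKM in competent and at 0.580, 0.370 and 0.600 FPKM in control libraries, below the minimum for a test. Cd28 and Ctla4, the receptors of CD80 and CD86 on T cells, stayed at or below 0.566 and 0.321 FPKM. Cd44, a receptor of serglycin, was listed at 0 in 8 of 9 libraries, which can be a failed estimate.

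MHC class II genes, which load and present antigen, had a median difference below 0 for competent minus control, and none passed the threshold. Of 12 names 9 were tested, of which 1 for arrested minus competent and 2 for competent minus control had an unadjusted p under 0.05 in limma. Over all genes tested these shares were 10.9% and 5.18%. For arrested minus competent 8 differences were above 0 and 1 below 0 with a median of 0.25, and for competent minus control all 9 were below 0 with a median of -0.42. H2-Aa, an alpha chain of MHC class II, stood at 139, 135 and 89.0 FPKM in arrested, at 69.9, 78.2 and 60.5 FPKM in competent and at 157, 91.8 and 138 FPKM in control libraries. The competent libraries were below all others. Of the 9 genes, 2 were higher in every arrested than in every competent library, where 7.73% of all genes tested were. For competent minus control 3 were lower without overlap, against 8.13% of all genes tested. The difference was 0.77 ± 0.25 for arrested minus competent (limma adjusted p = 0.377) and -0.85 ± 0.25 for competent minus control (limma adjusted p = 0.866). Cd74, the invariant chain, overlapped between the groups at 55.9, 98.0 and 47.5 FPKM in arrested, at 54.2, 49.2 and 65.6 FPKM in competent and at 87.2, 57.7 and 82.9 FPKM in control libraries.

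The cargo of serglycin and the enzymes that build its chains had differences on both sides of 0. Of 22 genes, 17 were tested and none was called by limma. For arrested minus competent 2 of the 17 had an unadjusted p under 0.05 in limma, against 10.9% of all genes tested. The median difference was 0.05. Of the 17, 1 was higher in every arrested than in every competent library, where 7.73% of all genes tested were. Gzmb, a granzyme of cytotoxic lymphocytes that serglycin holds in granules, stood at 6.37, 5.68 and 3.41 FPKM in arrested, at 3.02, 2.06 and 1.40 FPKM in competent and at 9.03, 4.09 and 8.59 FPKM in control libraries. All competent libraries were below the others, with a difference of 0.96 ± 0.35 for arrested minus competent (limma adjusted p = 0.403). B3gat3, which adds the last sugar of the linker between core protein and chain, was lower in every arrested library than in any other, at 22.9, 16.2 and 23.1 FPKM in arrested, at 27.6, 32.0 and 26.1 FPKM in competent and at 30.3, 36.1 and 31.7 FPKM in control libraries. The difference was -0.46 ± 0.17 for arrested minus competent (limma adjusted p = 0.408).

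Genes of natural killer cells, which store serglycin and granzymes, had, like Srgn, their lowest means in the competent group. Of 6 genes, 5 were tested and none was called by limma. For arrested minus competent 4 of the 5 had an unadjusted p under 0.05 in limma, against 10.9% of all genes tested. All 5 were higher in every arrested than in every competent library, where 7.73% of all genes tested were, with a median difference of 0.99. For competent minus control all 5 were below 0, with a median of -0.47, and for 3 of the 5 the groups did not overlap, against 8.13% of all genes tested. Nkg7, a granule membrane protein, stood at 16.1, 12.7 and 8.89 FPKM in arrested, at 6.75, 5.97 and 2.03 FPKM in competent and at 12.3, 7.27 and 17.2 FPKM in control libraries. Its difference was 1.28 ± 0.43 for arrested minus competent (limma adjusted p = 0.385). Ncr1, the receptor NKp46, stood at 5.43, 6.33 and 2.13 FPKM in arrested, at 1.57, 1.39 and 1.24 FPKM in competent and at 2.56, 0.919 and 4.09 FPKM in control libraries, with a difference of 1.14 ± 0.44 for arrested minus competent (limma adjusted p = 0.412). Klrb1c, the receptor NK1.1, and Gzmc, a granzyme, differed by 0.76 ± 0.25 and 0.72 ± 0.26 (limma adjusted p = 0.379 and 0.397), and Klrd1, a partner chain of NKG2 receptors, by 0.99 ± 0.48 (limma adjusted p = 0.511). The list was chosen with earlier results of these data known.

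**Figure D3:**
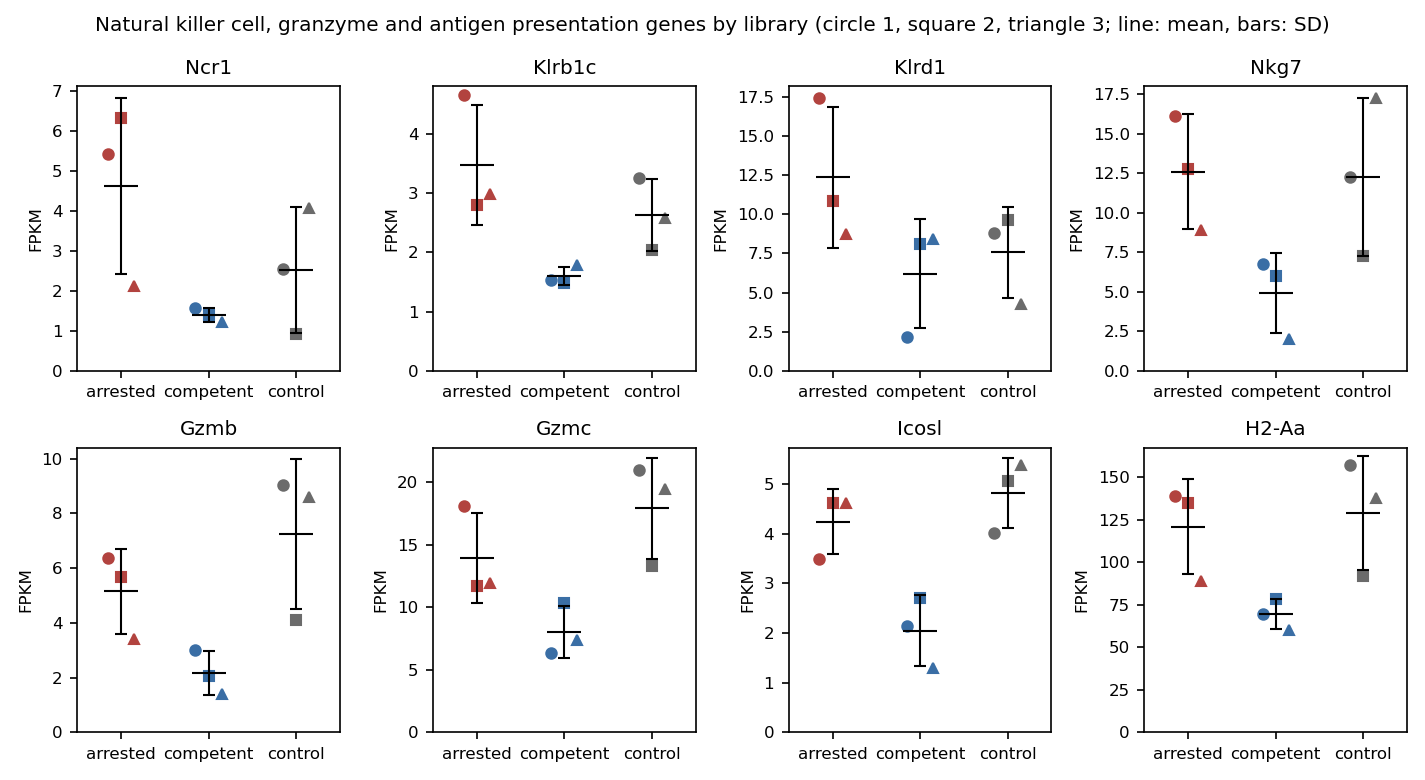
FPKM of 5 natural killer cell genes (Ncr1, Klrb1c, Klrd1, Nkg7, Gzmc), of Gzmb, Icosl and H2-Aa in each library, with the mean as a line and the SD of 3 libraries as bars. The competent libraries lie below the arrested libraries for all 8 genes, and none of the differences passed the limma threshold.

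The summed level of the 6 natural killer cell markers ran from 35.6 to 61.7 FPKM in arrested, from 18.7 to 27.3 FPKM in competent and from 33.2 to 48.8 FPKM in control libraries. These sums did not overlap between the competent libraries and the others, as for Srgn, and their part in the Srgn and Cd83 values was not tested. The same held for the summed MHC class II genes. They stood at 381 to 545 FPKM in arrested, 342 to 373 FPKM in competent and 407 to 565 FPKM in control libraries. For the 12 macrophage markers the sums overlapped, at 338 to 459 FPKM in arrested, 324 to 391 FPKM in competent and 313 to 623 FPKM in control libraries. Of the 11 macrophage genes tested, 10 were below 0 and 1 above 0 for competent minus control, with a median of -0.34. Arrested minus competent had 6 above 0 and 5 below 0, with a median of 0.08. The 10 T cell and B cell markers summed to 8.46 to 20.6 FPKM in arrested, 11.2 to 17.5 FPKM in competent and 9.82 to 14.4 FPKM in control libraries, and the levels of single markers differed widely. Cd3e, Cd8a and Ms4a1 were at or below 0.224 FPKM in every library. Cd3g, a chain of the T cell receptor complex, stood at 11.1, 9.94 and 2.37 FPKM in arrested, at 7.98, 11.7 and 3.67 FPKM in competent and at 4.45, 1.61 and 5.90 FPKM in control libraries. Cd79b, of the B cell receptor, lay at 2.81 to 4.41 FPKM in arrested, 3.97 to 4.17 FPKM in competent and 3.63 to 4.27 FPKM in control libraries. In the 6 neutrophil markers the sums were 3.71 to 9.09 FPKM in arrested, 5.58 to 27.8 FPKM in competent and 4.21 to 36.5 FPKM in control libraries.

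Mast cells also store serglycin, and the 7 mast cell markers summed to 38.2 to 161 FPKM in arrested, 20.7 to 29.6 FPKM in competent and 19.6 to 34.2 FPKM in control libraries. Most of that was Hdc, the histamine-forming enzyme, at 35.8, 30.5 and 155 FPKM in arrested, at 22.1, 15.5 and 18.5 FPKM in competent and at 24.6, 17.1 and 15.9 FPKM in control libraries, with a difference of 1.54 ± 0.55 for arrested minus competent (limma adjusted p = 0.398). The mast cell receptor and protease genes Fcer1a, Ms4a2, Cpa3, Cma1 and Tpsb2 overlapped between the groups. Epithelium and endothelium markers were present in every library, at 1784 to 2624 and 33.6 to 96.3 FPKM in arrested, 2079 to 2394 and 45.4 to 66.9 FPKM in competent and 1942 to 2348 and 66.3 to 69.1 FPKM in control libraries. Of the 8 endothelium genes, 7 were below 0 and 1 above 0 for competent minus control, with a median of -0.30. None of the tested genes of the macrophage, T cell and B cell, neutrophil, mast cell, endothelium, epithelium and adipocyte lists was called by limma, and those with an unadjusted p under 0.05 for arrested minus competent were Cd2, Hdc and Cdh1. Cdh1, the epithelial cadherin, stood at 123, 104 and 112 FPKM in arrested, at 176, 152 and 165 FPKM in competent and at 137, 151 and 133 FPKM in control libraries (limma adjusted p = 0.233 for arrested minus competent).

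**Figure D4:**
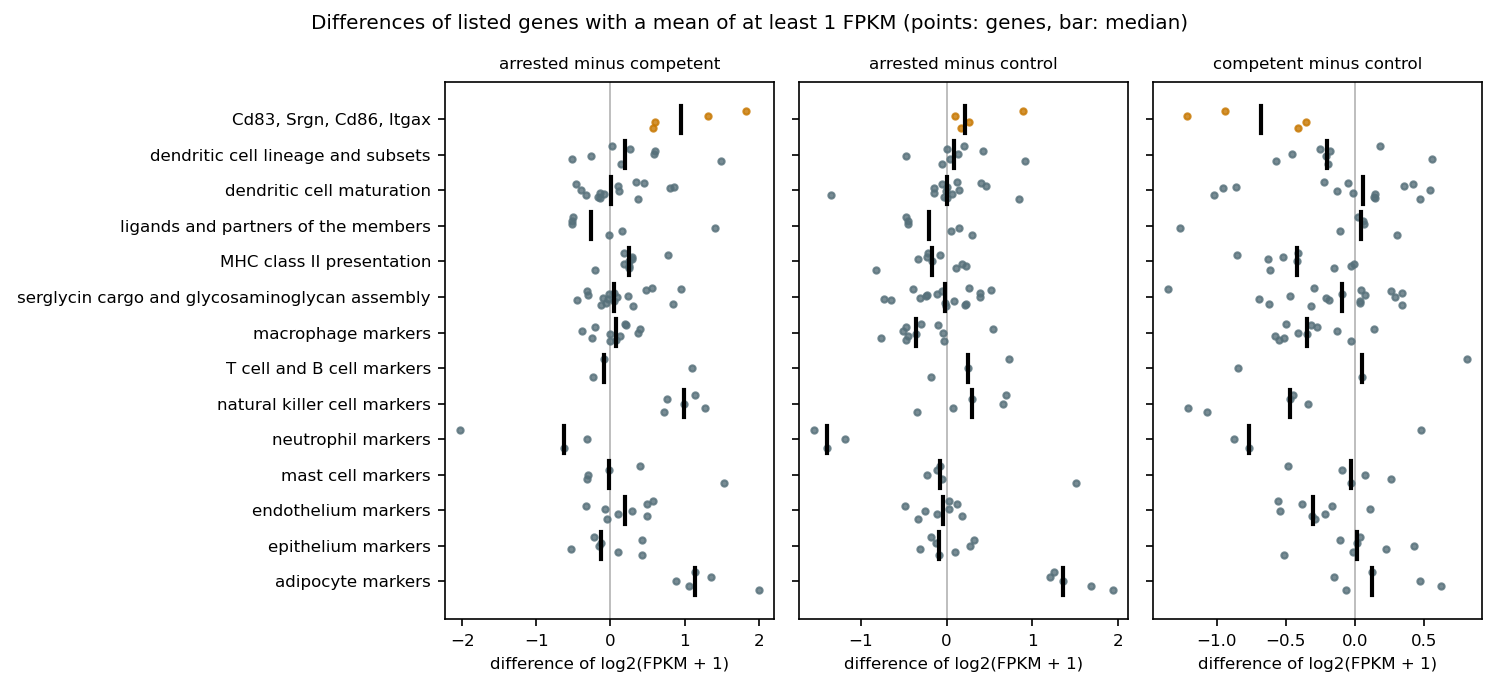
Differences of log2(FPKM + 1) of the listed genes that reached a mean of 1 FPKM, in 3 panels for arrested minus competent, arrested minus control and competent minus control; each point is a gene and each bar the median of its list. The medians of the natural killer cell markers are 0.99, 0.29 and -0.47, and those of dendritic cell maturation lie within 0.06 of 0. Those of the adipocyte markers, whose sum is highest in arrested library 2, are 1.14, 1.35 and 0.12.

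Arrested libraries 2 and 3 stood apart. Arrested library 3 lay at 90.7 on the leading principal component, with 16.6% of the variance, where the 8 others lay between -25.1 and 4.87. Arrested library 2 had an adipocyte marker sum of 1302 FPKM, against at most 163 FPKM in the 8 others. Leaving out each library in turn gave an arrested minus competent difference between 1.76 and 1.89 for Cd83 and between 1.27 and 1.38 for Srgn. Both genes were chosen for their differences in these libraries, so these ranges are no sign of stability. Leaving out a control library cannot change this difference.

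The genes whose profile over the 9 libraries was most like that of Cd83, among 10832 named coding genes, were Scel (Pearson r = 0.952), Gstm5 (0.948), Sec23b (0.940), Echdc2 (0.936) and Gpc1 (0.931). Scel, a protein of the cornified envelope of epithelia, averaged 3.82 ± 0.463 FPKM in arrested, 0.678 ± 0.362 FPKM in competent and 1.50 ± 0.431 FPKM in control libraries (SD, n = 3 each). Gpc1, a cell surface heparan sulfate proteoglycan, averaged 19.0 ± 6.31 FPKM in arrested, 4.19 ± 1.53 FPKM in competent and 7.66 ± 2.96 FPKM in control libraries. None of the 5 is in the lists of dendritic cell genes. These lists held 8 and 14 tested genes against 10832 ranked, so few could appear among 5, and nothing is read from their absence.

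Nearest to Srgn were Acaa1a (r = 0.954), Zfp7 (0.941), Ms4a4b (0.939), Slc25a25 (0.934) and Zfp87 (0.934). Acaa1a, a peroxisomal thiolase, averaged 41.4 ± 7.10 FPKM in arrested, 10.7 ± 1.62 FPKM in competent and 45.6 ± 3.60 FPKM in control libraries (SD, n = 3 each). Ms4a4b, a membrane protein of T cells and natural killer cells, stood at 8.81, 8.62 and 9.39 FPKM in arrested, at 3.63, 3.40 and 3.89 FPKM in competent and at 7.23, 6.05 and 9.17 FPKM in control libraries. Zfp87 was listed at 0 in all competent libraries. These genes were chosen for their likeness over the same 9 libraries, so their values describe and test nothing.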

How the data were processed

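RNA of whole uterus was measured in 9 libraries, 3 per group, grouped by the treatment in the labels. Bowtie 0.12.2, Cufflinks and the genome build mm9 are named in the submitters' processing notes, without a Cufflinks version. The deposited values are FPKM per transcript with the ends of the authors' confidence interval, and the coverage signal deposited beside them is the authors' read depth over a transcript, not divided by library size. Dividing reads among near-identical transcripts can move a transcript to 0, so genes were summed. Control library 1 came without a header line and its columns were read by their order in the others.

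Annotated transcripts (92839 per library) were assigned to genes by GENCODE vM1 on NCBIM37, where 98.83% had the same coordinates and up to 1356 were absent and not used. Between 73.3 and 74.6% of transcripts were at 0 in a library. Coverage times length amounted to 1077 Mb (control 1) to 1972 Mb (competent 1), and total reads per library are not known. FPKM were used without rescaling (median-ratio size factors 0.945 to 1.06).

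The 13333 genes whose mean reached 1 FPKM were tested with limma 3.58.1 in R 4.3.3 on log2(FPKM + 1), in 1 fit of all libraries with a mean trend, and p-values were adjusted by Benjamini-Hochberg over all genes tested in a comparison, with a threshold of 0.05. The fit was tested on simulated data. Changes were simulated only in genes more abundant than Cd86 and Itgax, so this does not show how well changes in those genes would be found. Gene sums used Python 3.11.15, pandas 2.3.3 and numpy 2.4.6. Coverage steps were found for genes carried by 1 transcript per library and called whole within 0.1 of a step. The step was first taken from the authors' confidence intervals and then adjusted slightly to bring the multiples closest to whole numbers.

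The members and all 13 lists were chosen with earlier results of these data known. Named from each list were up to 4 genes of smallest unadjusted p for arrested minus competent and others to show their level, and for Cd83 and Srgn the 5 genes of highest r. The alternatives were the pseudocount, the filter on low values, leaving out failed estimates, other transcript sums, coverage, size factors, only the 2 groups compared, the replicate number as a block, and leaving out each library.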

Additional observations from a re-analysis of the deposited data

Results flagged for a closer look

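Transcripts that Cufflinks assembled in single libraries were not part of the gene values, and for Cd86 and Itgax they held signal above the highest control library. Assembled Cd86 transcripts amounted to 0.761 FPKM in arrested library 3 and 0.434 FPKM in competent library 2, and to 0 in every control library. Assembled Itgax transcripts amounted to 7.44 FPKM in arrested library 3 and 5.73 FPKM in competent library 2, against at most 3.73 FPKM in a control library. In arrested library 3 they were 2 transcripts, of 27 exons (1.54 FPKM) and 7 exons (5.89 FPKM), beside an annotated value of 0.410 FPKM. In competent library 2 it was 1 transcript of 3 exons at the 3′ end of the gene, beside an annotated value of 0.730 FPKM.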

How the results depend on the processing

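Cd83 and Srgn were chosen for their differences in these libraries, and filters, the samples in the fit and the replicate block leave a difference of means as it is, so their direction is no sign of stability. Over 19 alternatives their differences ranged, for Cd83, from 1.76 to 2.41 (arrested minus competent), 0.646 to 1.06 (arrested minus control) and -1.36 to -0.870 (competent minus control), and for Srgn 1.24 to 1.48, 0.0237 to 0.204 and -1.44 to -1.11. Cd86, in 17 alternatives, and Itgax, in 18, passed the threshold in none, with a lowest limma adjusted p of 0.372 and 0.291 for arrested minus competent; the others left the gene out as too low. Their arrested minus control difference turned sign, for Cd86 to -0.155 with coverage, and for Itgax to -0.0266 with assembled transcripts added, to -0.457 when the transcript of highest mean stood for the gene, and to -0.107 without control library 2, -0.0214 without arrested library 1 and -0.145 without arrested library 2, the lowest of a range up to 0.666 over the libraries left out. The number of genes called was 18 for arrested minus competent, and 11 when 1 transcript stood for the gene and 33 with only the 2 groups in the fit. It was 7 for arrested minus control, and 3 when 1 transcript stood for the gene, and 6 for competent minus control, and 10 without the filter and 12 with only the 2 groups. Leaving out 1 library gave 11 to 41 (11 without competent library 3, 41 without arrested library 2 or 3), 7 to 25 (25 without arrested library 3) and 4 to 16 (16 without control library 2). The cause was not tested. Same-numbered libraries did not clearly deviate together (r -0.0515 to 0.0958 over 9 pairs, and -0.0936 to 0.0819 over 18 pairs of different number). So few correlations cannot exclude that the numbers pair samples. With the replicate block 4, 5 and 1 genes were called. Genes below 1 FPKM rest on few reads: Ccr7 had at most 5 coverage steps in a library.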
